A study of Mus musculus with 12 samples.

Results

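The chromatin accessibility of 37 lymphoid lineage genes was examined in mouse hematopoietic stem cells (HSCs). A region was counted for a gene when a window of 250 bp on each side of a peak summit, merged with overlapping windows, lay within the gene body or the 10 kb on either side. This gave 185 of the 71006 regions of the whole catalogue, spread over 35 of the 37 genes, and the rule itself used no measured difference between groups. The assay was ATAC-seq, in which a transposase cuts and tags DNA that nucleosomes leave free, so that a peak marks accessible chromatin. The 12 libraries formed 4 groups of 3, all from C57BL/6 bone marrow: Young WT and Young Mlkl-/- at 3 months of age, and Aged WT and Aged Mlkl-/- at 18 months of age. Mlkl encodes the pore-forming effector of necroptosis, a form of inflammatory cell death, and the Mlkl-/- mice lacked this protein. Per the study's methods, each replicate held HSCs pooled from several mice, fewer in the aged than in the young groups, so the spread between replicates is one between pools. The cells were sorted as Lin-/cKit+/Sca1+/Flk2-/CD48-/CD150+. The antibodies of this gate bore on several of the 37 genes, because Flk2 is the protein of Flt3 and the lineage cocktail removed cells with CD3 epsilon, CD4 or CD8 alpha at the surface.

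HSCs give rise to lymphocytes through multipotent and common lymphoid progenitors, and part of the lymphoid programme is already accessible in the stem cell, a state known as lymphoid priming. Ikaros family factors, E2A and the kinase receptor Flt3 act at the first steps, Ebf1 and Pax5 then fix the B cell fate, and Notch1, Gata3, Tcf7 and Bcl11b direct the T cell fate. With age the stem cell pool is known to give relatively fewer lymphoid and more myeloid cells.

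The sequences shown are 300 bases around the strongest summit of 3 of the 4 lymphoid regions that differed with age at an adjusted p under 0.01, and of the region next in order of p, which lay in Flt3. They are on the plus strand of mm10 (GRCm38), 5′ to 3′. Capitals mark the letters of searched motifs on either strand, here AP-1 (TGANTCA) and RUNX (TGTGGTT). The first is in a Bach2 intron at chr4:32279878-32280177, the second in a Bach2 intron at chr4:32251052-32251351, the third beyond the 3′ end of Gata3 at chr2:9852667-9852966 and the last in a Flt3 intron at chr5:147366470-147366769.
Bach2, 41.1 kb after the start: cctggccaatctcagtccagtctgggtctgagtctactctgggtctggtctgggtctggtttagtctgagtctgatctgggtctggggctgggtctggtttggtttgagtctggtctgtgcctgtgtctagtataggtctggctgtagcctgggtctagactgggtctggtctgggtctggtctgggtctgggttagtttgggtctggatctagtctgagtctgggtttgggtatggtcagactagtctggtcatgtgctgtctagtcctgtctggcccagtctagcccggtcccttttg
Bach2, 12.2 kb after the start: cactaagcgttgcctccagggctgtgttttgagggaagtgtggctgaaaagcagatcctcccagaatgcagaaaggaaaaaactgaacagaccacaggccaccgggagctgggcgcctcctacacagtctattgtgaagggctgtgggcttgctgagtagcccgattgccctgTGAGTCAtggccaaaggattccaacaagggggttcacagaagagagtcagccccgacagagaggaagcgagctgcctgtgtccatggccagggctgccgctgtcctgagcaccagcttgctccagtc
Gata3, 25.8 kb after the start: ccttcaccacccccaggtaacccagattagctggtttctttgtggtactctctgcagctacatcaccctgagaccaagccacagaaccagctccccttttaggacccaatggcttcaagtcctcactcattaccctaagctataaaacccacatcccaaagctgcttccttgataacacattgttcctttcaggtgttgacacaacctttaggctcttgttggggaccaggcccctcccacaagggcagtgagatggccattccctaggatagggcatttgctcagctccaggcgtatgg
Flt3, 33.9 kb after the start: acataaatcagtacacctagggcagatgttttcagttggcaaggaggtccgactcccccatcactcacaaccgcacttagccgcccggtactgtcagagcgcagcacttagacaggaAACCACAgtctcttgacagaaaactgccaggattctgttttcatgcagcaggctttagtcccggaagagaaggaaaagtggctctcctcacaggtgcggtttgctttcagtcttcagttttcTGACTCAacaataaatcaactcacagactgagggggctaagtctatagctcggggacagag

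Here and in the following, distances run from the nearest annotated start of the gene to the strongest summit of the region, in the direction of transcription, and negative distances lie before it. The Flt3 sequence at 33.9 kb held the RUNX letters, read on the minus strand, at -33 bp from its summit and the AP-1 letters at 89 bp. The Bach2 sequence at 12.2 kb held the AP-1 letters 23 bp after its summit. Neither the Bach2 sequence at 41.1 kb nor the Gata3 sequence held any of the 10 searched motifs. The Bach2 sequence at 41.1 kb was built of a short repeated unit, with 22 copies of gtctg in its 300 bases against 0 copies in each of the other sequences shown, a count made after the sequence was seen. Whether reads of such a unit were placed uniquely was not tested.

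The deposited summit lists held between 35714 and 61495 summits with a score of at least 3, the score being -log10 of the q-value, and the lists hold no read counts, so that sequencing depth is unknown. The aged lists were longer on average, with 55040 ± 3850 summits (SD, n = 3 per group) in Aged WT against 43020 ± 5010 in Young WT, and with 55460 ± 7520 in Aged Mlkl-/- against 46370 ± 10300 in Young Mlkl-/-. For the comparisons every list was therefore reduced to its 35714 strongest summits. Ranks within a list were turned into normal scores over the whole catalogue. Between 28428 and 30856 of the 71006 regions were called per equal-length list, so the middle of the catalogue was not called. A region not called in a list takes a floor value between -0.57 and -0.53, and called regions lie above 0. A switch between called and not called is therefore a step, with no values in between. The promoters of the HSC genes Kit, Hlf, Meis1 and Tal1 were called in 12 of 12 lists, and that of Slamf1, which encodes CD150, in 0. The promoters of the mature B cell markers Ms4a1, Cd22 and Cd79a and of the mature T cell markers Cd3e, Cd5, Cd8a and Cd4 were called in 0 of 12 lists. Of 7 myeloid markers, 6 were also at 0. Of 4 megakaryocyte markers, 3 (Pf4, Itga2b and Gp9) were called in all 12 lists. Summits at the starts of the Y chromosome genes Ddx3y, Eif2s3y, Kdm5d and Uty were found in 3 of 6 young and 0 of 6 aged libraries. The file names of 9 libraries carried a tag that those of Young Mlkl-/- 2, Aged WT 3 and Aged Mlkl-/- 1 lacked.

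The number of accessible regions in HSCs differed between the lymphoid genes. Of the 185 regions, 54 were called in all 12 deposited lists, 28 in a single deposited list, and 40 in all 12 lists of equal length. Of the 71006 catalogue regions, 12104 were in a single deposited list and 15534 in all 12 lists of equal length. The lymphoid shares were near these. Bach2, a repressor that guides early B and T cell differentiation, held 33 regions over its long gene body. Bcl11a, a factor needed for B cell development, and Gata3 held 10 each, and Ikzf1 (Ikaros), Ikzf2 (Helios) and Ebf1 held 9 each. Cd3e and Cd8a, a chain of the T cell receptor complex and a T cell co-receptor, had no region in any list. Il7r, the receptor for the lymphoid cytokine IL-7, had 1 region, at its promoter, in 1 list. Thy1, a surface protein of T cells, had 1 region, in 6 deposited lists. Single regions served pairs of neighbouring members at Rag1 and Rag2, at Vpreb1 and Igll1, and at Cd3d and Cd3g.

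By position, 25 regions lay within 1 kb of a start of their own gene, 18 within 1 kb of a start of another gene and 142 were distal. Distal regions made up 76.8% of the lymphoid regions and 74.1% of the catalogue. Among distal regions, 15.5% of the lymphoid and 12.2% of all were called in all 12 equal-length lists. Among regions at any gene's start, these shares were 41.9% and 49.5%. The median GC content around the summit was 52.2% in distal lymphoid regions and 49.0% in all distal regions.

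In the deposited lists the number of lymphoid regions called was 106, 99 and 87 in Young WT, 117, 134 and 78 in Young Mlkl-/-, 125, 109 and 124 in Aged WT, and 122, 103 and 140 in Aged Mlkl-/-. The aged values were higher on average and overlapped the young ones, and they followed the lengths of the lists. In lists of equal length the numbers were 86, 83 and 86 in Young WT, 92, 88 and 78 in Young Mlkl-/-, 86, 89 and 78 in Aged WT, and 83, 77 and 81 in Aged Mlkl-/-. The 4 groups overlapped, and the mean difference between aged and young libraries was 17.0 regions in the deposited lists and -3.17 in lists of equal length. The difference between Mlkl-/- and WT was 7.33 and -1.5 regions in the same order. The SE of each equal-length difference was 2.84 regions. Leaving out 1 library moved the first to between -4.67 (without Young Mlkl-/- 3) and -1.87 (without Young Mlkl-/- 1), and the second to between -3.27 (without Young Mlkl-/- 1) and -0.267 (without Aged Mlkl-/- 2).

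**Figure D1:**
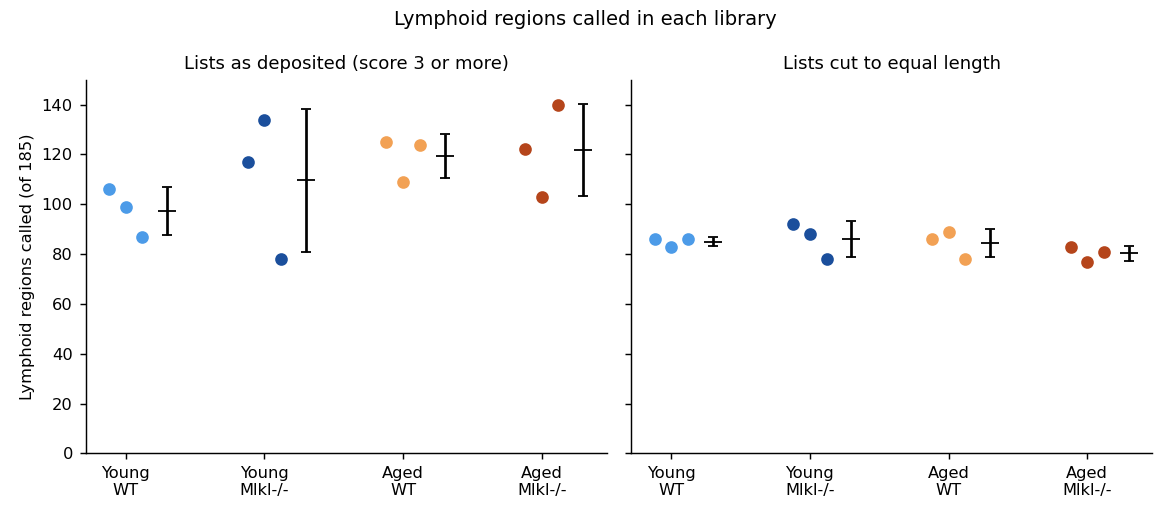
Number of lymphoid regions, of 185, called in each of the 12 libraries (y axis) by group (x axis), in the lists as deposited (left) and cut to equal length (right). Points are libraries and the bars to their right give mean ± SD (n = 3). The deposited lists gave 78 to 140 regions, and the equal-length lists 77 to 92 with all groups overlapping.

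At the starts of the genes themselves, 10 of the 37 genes had a region in all 12 deposited lists, 11 in some of the lists and 16 in none. The strongest were at Tcf3, which encodes E2A, with a mean normal score of 1.72 (1.36 to 2.09 over the 12 libraries), at Flt3 with 1.65 (1.28 to 2.09) and at Id2, an inhibitor of E proteins, with 1.50 (1.07 to 1.92). Regions at the starts of Ikzf1 (mean 1.05), Bach2 (0.97), Satb1 (0.89), Ikzf2 (0.76) and Ebf1 (0.70) were also called in every equal-length list. Satb1 organises chromatin loops and is active in lymphoid-primed progenitors. The starts of Lef1 (0.53) and Notch1 (0.45) were each called in 11 of the 12 equal-length lists. Of the 10 genes accessible at the start in every deposited list, 6 were progenitor factors. The 16 genes without a region at their own start were Pax5, Ccr7 and Thy1, the recombination genes Rag1, Rag2 and Dntt, the B cell receptor components Vpreb1, Igll1 and Cd79a, and the T cell genes Cd3e, Cd3d, Cd3g, Cd4, Cd8a, Zap70 and Cd2.

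The number of own-start regions called per equal-length list was 14, 14 and 16 in Young WT, 14, 14 and 15 in Young Mlkl-/-, 14, 16 and 11 in Aged WT and 11, 11 and 11 in Aged Mlkl-/-. The Aged Mlkl-/- libraries were all below the Young libraries and level with the lowest Aged WT library, a description without a test. Calls at the starts of all genes were not counted per library. Whether the lower numbers were particular to lymphoid genes was therefore not tested. For distal regions the numbers, 49 to 64 over all libraries, overlapped between all groups.

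**Figure D2:**
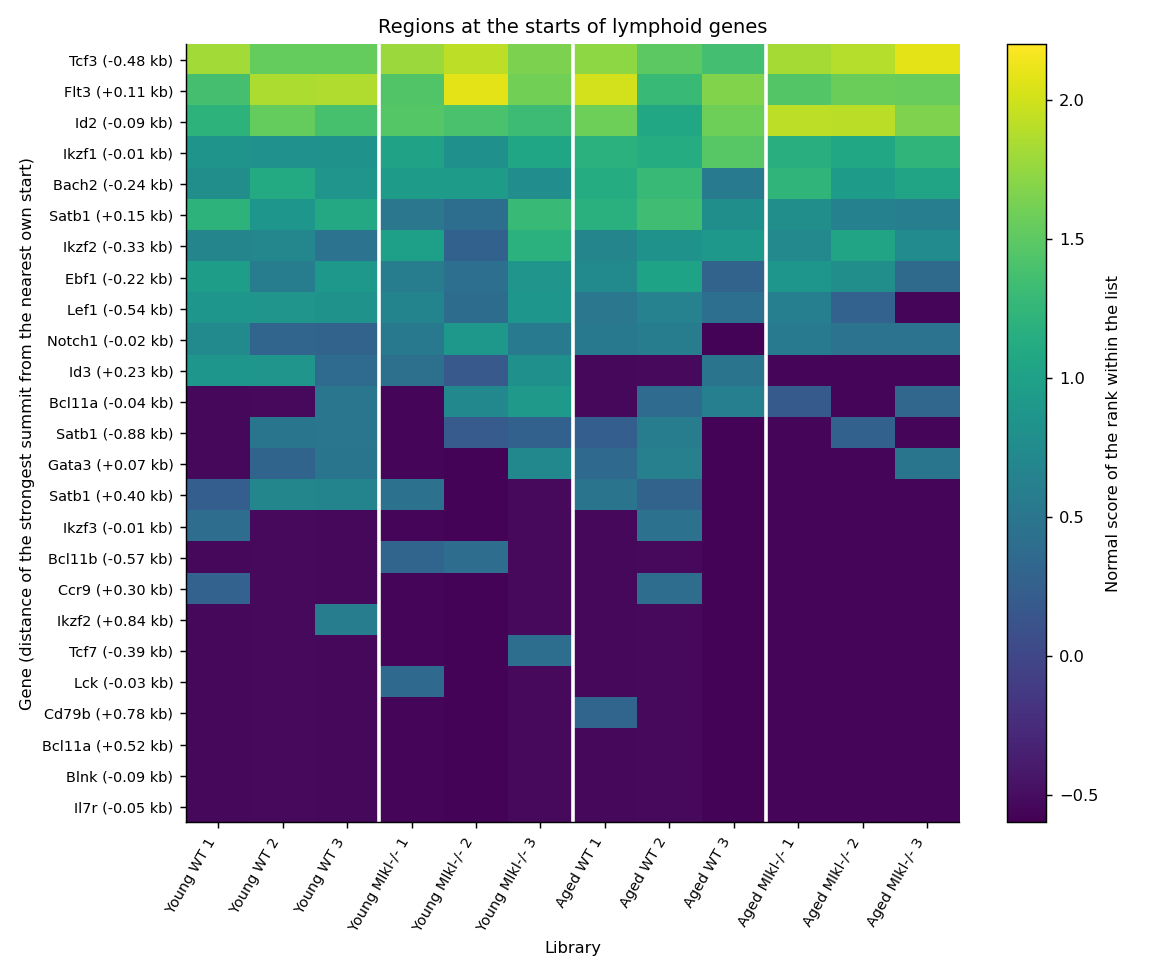
Normal score of the rank within the equal-length list (colour) for the 25 regions within 1 kb of a start of their own gene (rows, sorted by mean) in the 12 libraries (columns, white lines between groups). The upper rows, Tcf3, Flt3, Id2 and Ikzf1, were called in every library, whereas the lowest rows, such as Il7r, stayed at the floor value.

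Several of the highest normal scores belonged to starts of neighbouring genes that fell into the 10 kb flank. The region of highest mean in the set (2.22, range 1.60 to 2.83) was assigned to Tcf3 but lay at -144 bp from a start of Mbd3. The next, assigned to Cd79a (1.82), lay at -96 bp from a start of Arhgef1, and one within Ccr9 (1.82), the gene of a gut-homing chemokine receptor, lay at -22 bp from a start of Lztfl1. The strongest distal region lay in an intron of Bcl11a, 59.0 kb after the start, with a mean of 1.74 and calls in all 12 lists. Its score was 1.46 ± 0.31 in young and 2.02 ± 0.36 in aged libraries (SD, n = 6), a difference of 0.56 that did not pass the test (adjusted p = 0.0528, limma with Benjamini-Hochberg adjustment).

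Aging was compared over both genotypes, 6 young against 6 aged libraries. Of the 185 lymphoid regions, 110 were called in at least 3 equal-length lists and were tested in a limma fit over all 37886 such regions. At an adjusted p under 0.01, 1 lymphoid region rose (Gata3) and 3 fell (Bach2 in 2 places, and Flt3). Over all tested regions 1.72% rose and 1% fell, so the number that rose was near the background. The 3 that fell were above that share but too few to be read as an excess. The Gata3 region met the minimum of 3 lists through its aged calls, and the Flt3 region and 1 of those at Bach2 through their young calls, so the counts are descriptions. At an unadjusted p under 0.05 there were 28 lymphoid regions, 9 higher and 19 lower with age, or 25.5% against 22.1% of all regions. The share over all regions was not split by direction at this p, so the split of the 28 has no background beside it. The changes of all 110 had a median of -0.02, against -0.01 over all regions, with 51 positive and 59 negative. The changes thus lay on both sides of 0, and those past the threshold sat at single regions. Fewer cells with an accessible site and less accessibility per cell cannot be told apart in these bulk libraries.

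The number of calls changed with the covariate fitted and the libraries used, among lymphoid and all regions alike. Summits at Y chromosome genes and list length both differed between young and aged libraries. As covariates they cannot be fully told apart from age. With the presence of summits at the Y chromosome genes as a covariate, chosen after the data were seen, 0 of the 4 calls passed (adjusted p from 0.021 to 0.0244), while the share over all regions went from 2.72% to 0.871%. In that limma fit 28 of the 110 regions had an unadjusted p under 0.05, against 19.6% of all. The changes there were -0.65 for the Bach2 region at 41.1 kb, -1.19 for that at 12.2 kb, -1.10 for Flt3 and 1.25 for Gata3, against -0.86, -1.28, -1.12 and 1.12 without the covariate. Their SEs in the same order were 0.147, 0.277, 0.252 and 0.293, against 0.135, 0.223, 0.205 and 0.236 without it. With the length of the list as a covariate 1 passed, the Bach2 region at 41.1 kb, against 0.158% of all, and the 4 changes in the same order were -1.08, -1.41, -1.14 and 0.97. Among the 9 libraries with the file-name tag 2 passed, against 0.616% of all. All 6 aged libraries lay above all 6 young ones in 1 lymphoid region, at the Ikzf1 start (mean 1.21 against 0.90, adjusted p = 0.116, limma), and below them in 6, against 2.13% and 1.75% of all tested regions. In 1 of those 6, near Zap70, Young Mlkl-/- 3 was not called either. Its floor value of -0.525 only differed from the aged floor values, the highest being -0.527, so no measured values were separated there. The shares over all regions were counted by the same comparison.

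**Figure D3:**
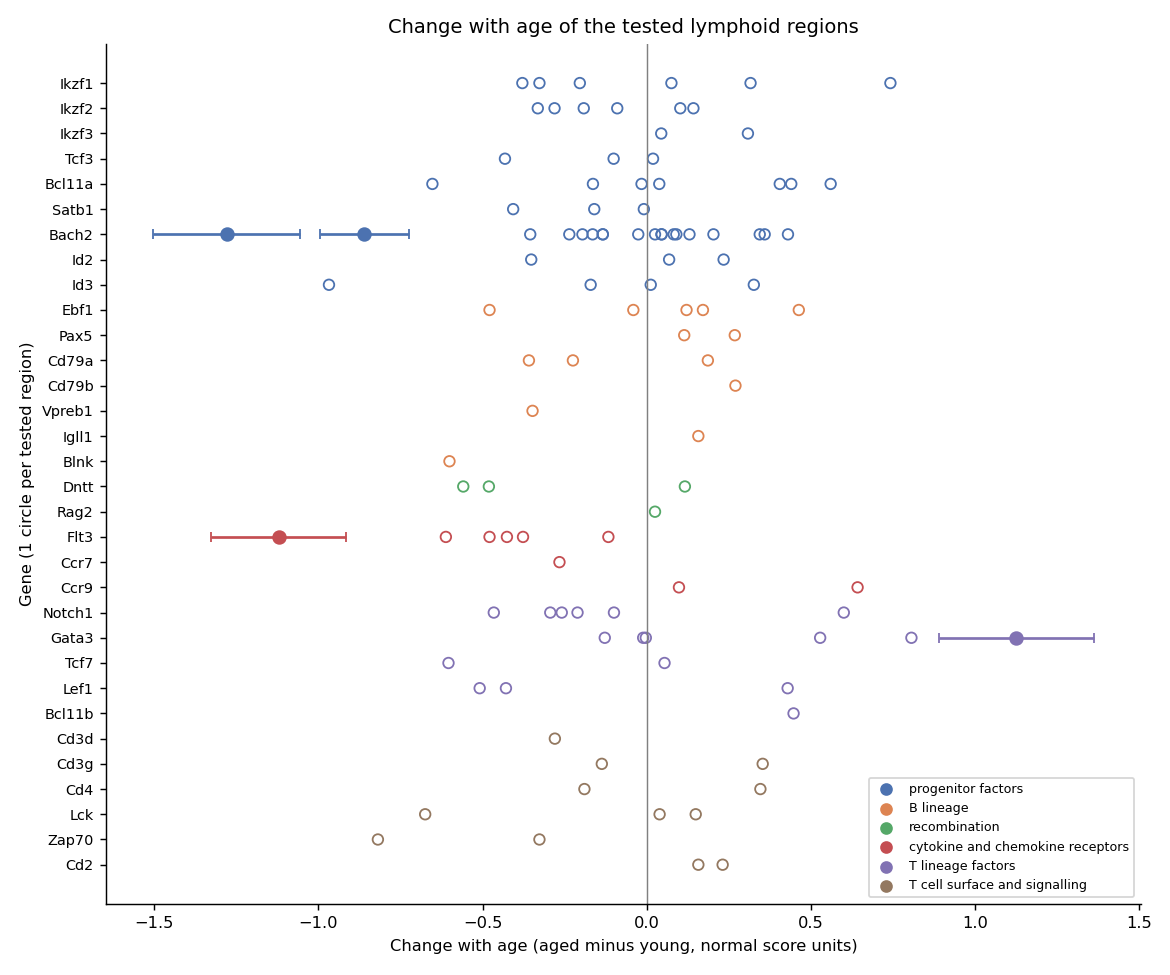
Change with age over both genotypes (x axis, aged minus young mean normal score) of the 110 tested lymphoid regions, 1 circle per region, by gene (y axis) and role (colour). Filled circles with bars (estimate ± SE) are the 4 regions at an adjusted p under 0.01, and a region shared by 2 members is drawn once. Changes lay on both sides of 0 for most genes, and for Flt3 all 6 lay below it.

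Among the 9 progenitor factors, 53 regions were tested, of which 0 rose and 2 fell, both at Bach2. The region 41.1 kb after the Bach2 start (chr4:32279708-32280278) had normal scores of 2.11, 2.01 and 1.52 in Young WT, 1.83, 1.68 and 1.24 in Young Mlkl-/-, 0.99, 0.67 and 0.77 in Aged WT, and 1.001, 0.91 and 0.89 in Aged Mlkl-/-. Every young library lay above every aged one. The region was called in all 12 lists. In the deposited lists it stood in the top 3.27% of the regions called in Young WT 1 and in the top 44.9% of those of Aged WT 2. The mean fell by 0.86 ± 0.13 (SE) with age, from 1.73 ± 0.32 to 0.87 ± 0.13 (SD, n = 6; adjusted p = 0.000835, limma). This is the region of repeated units shown above. The neighbouring region with its summit 564 bp farther on had a change of 0.34 that did not pass the test (adjusted p = 0.53).

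The second Bach2 region (chr4:32250950-32251510) lay in an intron, 12.2 kb after the Bach2 start and at -559 bp from a start of Bach2it1, an annotated transcript inside the gene. Its normal scores were 1.07, 1.11 and 1.06 in Young WT and 0.90, 0.68 and 0.41 in Young Mlkl-/-. In Aged WT it stayed at the floor in all 3 equal-length lists, and in Aged Mlkl-/- it was called in 1 of 3, with a score of 0.32. Young libraries were all above aged ones, and the mean fell by 1.28 ± 0.22 (SE), from 0.87 ± 0.28 to -0.41 ± 0.35 (SD, n = 6; adjusted p = 0.00179, limma). In the deposited lists 1 Aged WT and 2 Aged Mlkl-/- libraries still held a summit there, those of Aged WT 3 and Aged Mlkl-/- 3 at scores of 4.45 and 4.90. The adjoining region with its summit 1197 bp nearer the start went the other way in WT, with 0 of 3 calls in Young WT and 3 of 3 in Aged WT at normal scores of 0.52, 0.57 and 0.35. In Mlkl-/-, 2 of 3 young lists of equal length held that region and 0 of 3 aged ones did. Over both genotypes its change of 0.20 did not pass the test (adjusted p = 0.656). The other 17 tested Bach2 regions had changes between -0.36 and 0.43, and the region at the Bach2 start was at 0.91 in young and 1.03 in aged libraries on average.

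The start of Id3, a further inhibitor of E proteins, was third-lowest in p among the progenitor factors (chr4:136143429-136144131, with its summit in a UTR of Id3). Its normal scores were 0.88, 0.86 and 0.38 in Young WT, 0.43, 0.18 and 0.80 in Young Mlkl-/-, and 0.48 in Aged WT 3, while the other 5 aged libraries were at the floor. The young and aged ranges overlapped through Aged WT 3. The difference of -0.97 ± 0.25 (SE) had an adjusted p of 0.0211 (limma) and did not pass the threshold, and it was at 0.0073 without Aged WT 3. The deposited lists held a summit there in 3 of 3 Aged WT and 1 of 3 Aged Mlkl-/- libraries. For Ikzf1 the 6 tested regions ranged from -0.38 to 0.74, for Ikzf2 they ranged from -0.33 to 0.14, and the 3 of Satb1 were all below 0 (-0.41 to -0.01), none past the threshold.

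**Figure D4:**
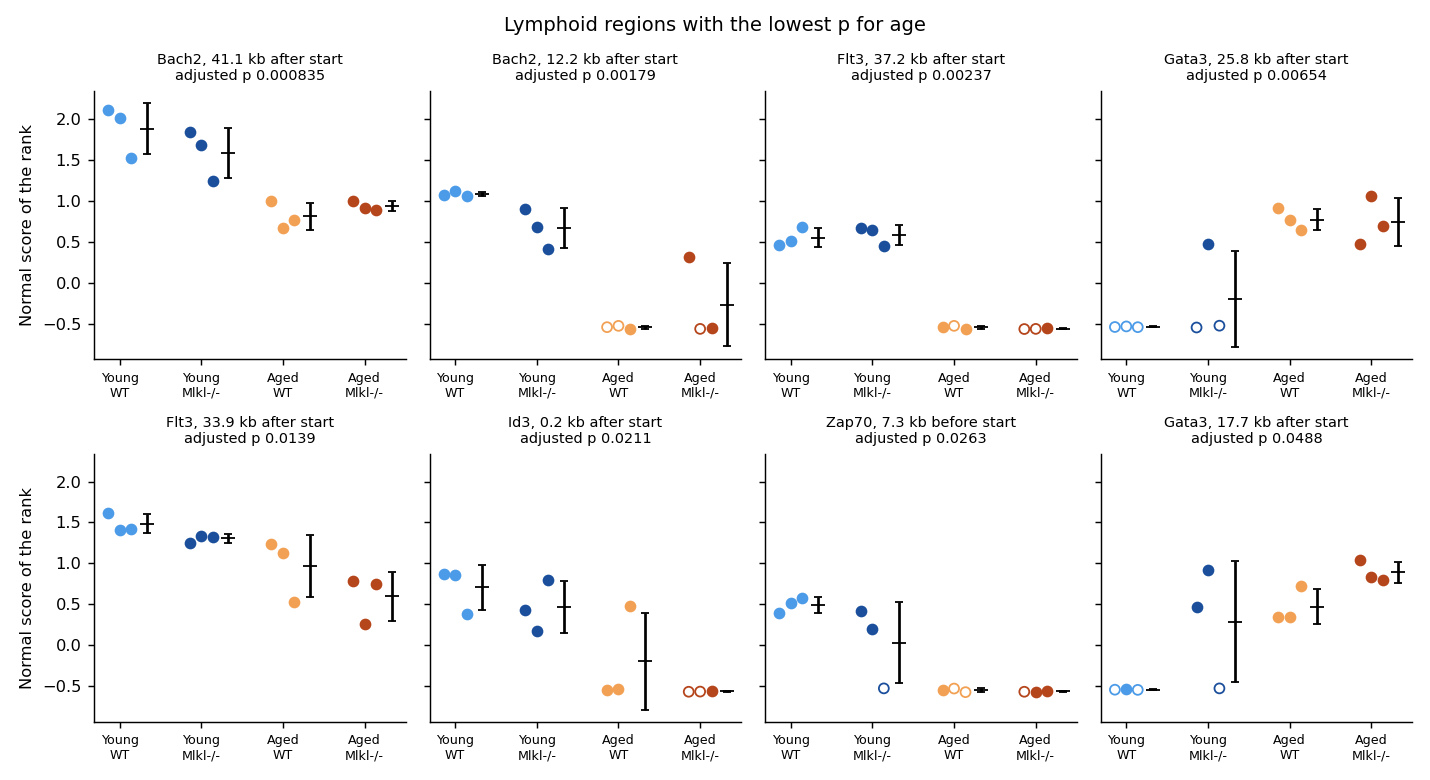
Normal scores of the 8 lymphoid regions with the lowest p for age in each library (points), by group, with mean ± SD (n = 3) beside them. Filled points were called in the deposited list and open points were not, so a filled point at the floor near -0.55 marks a summit too weak for the equal-length list. Both Bach2 and both Flt3 regions were lower in the aged groups, and both Gata3 regions higher.

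Of the cytokine and chemokine receptors, Flt3 accounted for 6 of the 9 tested regions. Flt3 is the receptor of the Flt3 ligand and marks the step from HSCs to lymphoid-primed multipotent progenitors. The intronic region 37.2 kb after its start had normal scores of 0.45, 0.51 and 0.68 in Young WT and 0.67, 0.64 and 0.45 in Young Mlkl-/-. It was at the floor in all 6 aged libraries, so that it entered the test through its young calls alone and the aged values, with their small SD, are assigned and not measured. The mean fell by 1.12 ± 0.20 (SE), from 0.57 ± 0.11 to -0.56 ± 0.02 (SD, n = 6; adjusted p = 0.00237, limma). In the deposited lists, weak summits were present in 2 of 3 Aged WT and 1 of 3 Aged Mlkl-/- libraries, at scores of 6.75, 3.36 and 5.03 against 5.47 to 13.7 in the young libraries. In lists of unequal length, where these summits kept their ranks, the change was -1.08 ± 0.24 (SE; adjusted p = 0.00331, limma).

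The second Flt3 intronic region, 33.9 kb after the start (chr5:147366319-147366885), was called in all 12 lists. Its normal scores were 1.62, 1.41 and 1.42 in Young WT, 1.25, 1.34 and 1.33 in Young Mlkl-/-, 1.24, 1.12 and 0.53 in Aged WT and 0.79, 0.26 and 0.75 in Aged Mlkl-/-. The young libraries all lay above the aged ones, by a narrow margin between Young Mlkl-/- 1 and Aged WT 1. The difference of -0.61 ± 0.14 (SE) missed the threshold (adjusted p = 0.0139, limma). The remaining 4 Flt3 regions had changes of -0.48, -0.43, -0.38 and -0.12, with adjusted p-values from 0.198 to 0.705. All 6 were below 0, with a median of -0.45 against -0.01 over all tested regions. The smallest was that of the Flt3 start itself, which scored 1.71 in young and 1.59 in aged libraries on average. Cells with Flk2 protein at the surface had been removed from all 4 groups, and the part of this gate in the Flt3 values was not tested. Of the other receptors, a Ccr9 intronic region had a change of 0.64, the tested Ccr7 region one of -0.27, and neither passed. Ccr7 directs lymphocytes to lymph nodes.

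Among the T lineage factors, 18 regions were tested, 1 of which rose and 0 fell. The region that rose lay between genes, beyond the 3′ end of Gata3 and 25.8 kb after its start (chr2:9852527-9853097). It was at the floor in all 3 Young WT libraries and in 2 of 3 Young Mlkl-/- libraries, and at 0.47 in Young Mlkl-/- 2. Its normal scores were 0.91, 0.76 and 0.64 in Aged WT and 0.47, 1.06 and 0.69 in Aged Mlkl-/-. The aged libraries were all called, and only Aged Mlkl-/- 1 fell within the range of the young ones. The mean rose by 1.12 ± 0.24 (SE), from -0.37 ± 0.41 to 0.76 ± 0.21 (SD, n = 6; adjusted p = 0.00654, limma). The call was close to the threshold and was lost on leaving out any of 11 of the 12 libraries (adjusted p from 0.011 to 0.0232), Young Mlkl-/- 2 being the exception. It was also lost with the replicate number as a block (adjusted p = 0.0103).

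A second Gata3 region, in an intron 17.7 kb after the start (chr2:9860658-9861208), was present in every aged list of equal length, in 2 of 3 Young Mlkl-/- lists and in 0 of 3 Young WT lists. The normal scores were 0.47 and 0.93 in the called Young Mlkl-/- libraries, 0.35, 0.35 and 0.72 in Aged WT, and 1.04, 0.83 and 0.80 in Aged Mlkl-/-. The difference of 0.81 ± 0.24 (SE) did not pass the threshold (adjusted p = 0.0488, limma). The Gata3 start itself was called in 6 of 12 equal-length lists and its mean was -0.03 in young and -0.04 in aged libraries. A region at -1.10 kb was called in all 12, at 1.15 in young and 1.02 in aged libraries. Notch1, the receptor that starts T cell commitment, had 6 tested regions, 5 of them below 0, with changes from -0.47 to 0.60. Lef1, a partner factor of beta-catenin, had intronic regions with changes of 0.43 and -0.51. None of the Notch1 and Lef1 regions passed.

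The genes of T cell surface and signalling proteins had 12 tested regions, with 0 past the threshold in either direction and 6 changes on each side of 0. The lowest p was that of a region at -7.28 kb from the Zap70 start (chr1:36753815-36754770), inside an intron of 4933424G06Rik. Zap70 is a kinase of the T cell receptor. The normal scores were 0.39, 0.52 and 0.58 in Young WT, 0.42 and 0.20 in Young Mlkl-/- 1 and 2, and the floor in Young Mlkl-/- 3 and all 6 aged libraries. The difference was -0.82 ± 0.22 (SE; adjusted p = 0.0263, limma). The region met the minimum of 3 lists through its young calls alone, and its aged values are assigned and not measured. Deposited lists held a summit in 1 of 3 Aged WT and 2 of 3 Aged Mlkl-/- libraries, with scores of 4.53, 4.47 and 8.14, so that the absence was one from the equal-length lists. Lck, the Src family kinase that acts before Zap70, had a region of high rank at -1.74 kb from its start, with means of 1.39 in young and 1.54 in aged libraries.

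B lineage genes had 14 tested regions, 8 with positive and 6 with negative changes, and none passed. An Ebf1 intronic region 280.2 kb after the start was called in all 12 lists at 0.88 ± 0.18 in young and 1.005 ± 0.21 in aged libraries (SD, n = 6). The strongest Pax5 region, 5.89 kb after its start, scored 1.03 ± 0.22 and 1.30 ± 0.28. Blnk, an adaptor of B cell receptor signalling, had a single tested region at 0.95 ± 0.28 in young and 0.35 ± 0.48 in aged libraries. Of the recombination genes, Dntt, the terminal transferase that adds nucleotides at V(D)J junctions, was the one with tested regions away from the starts of other genes. The strongest, in an intron 1.89 kb after the start, was called in all 12 lists. Its normal scores were 1.61, 2.07 and 1.98 in Young WT, 1.77, 1.04 and 1.23 in Young Mlkl-/-, 1.24, 1.51 and 1.05 in Aged WT and 0.68, 0.90 and 1.43 in Aged Mlkl-/-. The groups overlapped, and the change with age of -0.48 ± 0.16 (SE) did not pass (adjusted p = 0.0679, limma). The tested region of Rag1 and Rag2 lay at a start of B230118H07Rik.

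Within genotypes the age comparison rested on 3 against 3 libraries. In WT, 0 of the 110 regions passed against 0.201% of all tested regions, and 22 had an unadjusted p under 0.05 in limma (20% against 14.6% of all). In Mlkl-/-, 0 passed against 0.15%, and 15 had an unadjusted p under 0.05, a share of 13.6% against 14.4% of all. For the Bach2 region at 12.2 kb the change was -1.63 in WT and -0.93 in Mlkl-/-. For the Flt3 region at 37.2 kb it was -1.09 and -1.15, and for the Gata3 region at 25.8 kb it was 1.31 and 0.94. The change had the same sign in both genotypes in 72 of the 110 regions (65.5%), close to the 64.3% over all regions. The interaction of age and genotype was past the threshold in 0 regions, 0% of those tested, with 3 lymphoid regions at an unadjusted p under 0.05 (2.73% against 4.80% of all). No difference in the age effect between WT and Mlkl-/- was thus detectable at any lymphoid region with 3 libraries per group.

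**Figure D5:**
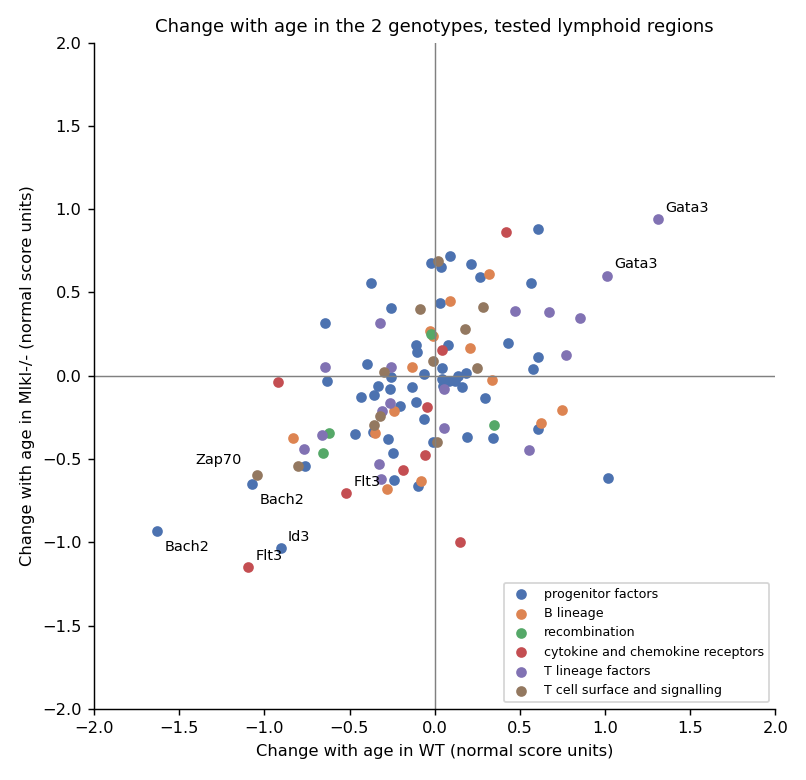
Change with age in WT (x axis) and in Mlkl-/- (y axis), each the aged minus young mean normal score of 3 against 3 libraries, for the 110 tested lymphoid regions coloured by role. The 8 regions with the lowest p for age over both genotypes are named, and 72 of the 110 regions lie in the quadrants of equal sign.

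Calls in 3 of 3 lists of one group and 0 of 3 of the other were counted in equal-length lists. With age in WT, 3 lymphoid regions were gained (both Gata3 regions and the Bach2 region next to the one at 12.2 kb) and 3 lost (at Zap70, Bach2 and Flt3), against 4.24% of all tested regions in either direction. With age in Mlkl-/-, 0 were gained and 2 lost (the Id3 start and the Flt3 region at 37.2 kb), against 4.11%. The Flt3 region was the one lost in both genotypes.

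Loss of Mlkl was compared at each age. At 3 months, 0 of the 110 lymphoid regions and 0% of all regions passed, with 6 lymphoid regions at an unadjusted p under 0.05, or 5.45% against 5.37% of all. The lowest p was that of a Bach2 intronic region 27.5 kb after an internal start, with normal scores of 0.49, 0.35 and 0.62 in Young WT and the floor in all 3 Young Mlkl-/- libraries. The difference was -1.04 ± 0.36 (SE; adjusted p = 0.716, limma). A region beyond the 3′ end of Ikzf3 (Aiolos) went the other way, with the floor in Young WT and 0.40, 0.19 and 0.50 in Young Mlkl-/-, a difference of 0.90 ± 0.32 (adjusted p = 0.761, limma). These were the only lymphoid all-or-none differences at this age, 1 gained and 1 lost, against 1.04% of all tested regions. The third-lowest p was that of the Dntt region described above (-0.54 ± 0.22, adjusted p = 0.867, limma).

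At 18 months, again 0 lymphoid regions and 0% of all passed, and 7 had an unadjusted p under 0.05 (6.36% against 5.10%). The Bach2 region adjoining the one at 12.2 kb was called in 3 of 3 Aged WT and 0 of 3 Aged Mlkl-/- equal-length lists, the one lymphoid all-or-none difference, against 1.11% of all. Its difference was -1.04 ± 0.31 (SE; adjusted p = 0.702, limma), and the deposited lists held it in 3 of 3 Aged Mlkl-/- libraries. A region beyond the 3′ end of Flt3, 76.8 kb after the start, scored 0.44 in Aged WT 1 and the floor in Aged WT 2 and 3, against 0.75, 0.86 and 0.45 in Aged Mlkl-/-. A region at -3.02 kb from the Id3 start scored 0.50 in Aged WT 1 and the floor in Aged WT 2 and 3, against 1.01, 0.60 and 1.14 in Aged Mlkl-/-. Neither difference passed (0.91 ± 0.30, adjusted p = 0.738, and 1.12 ± 0.42, adjusted p = 0.859, limma).

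Over both ages, 0 lymphoid regions and 0% of all differed between genotypes, with 10 at an unadjusted p under 0.05 (9.09% against 6.22% of all). The same Ikzf3 region had the lowest p, at 0.63 ± 0.23 (SE), and the Id3 region at -3.02 kb had 0.77 ± 0.29. A Satb1 region 0.40 kb after an internal start was lower in Mlkl-/-, by -0.69 ± 0.26. It scored 0.23, 0.69 and 0.66 in Young WT, 0.46 in Young Mlkl-/- 1, 0.48 and 0.29 in Aged WT 1 and 2, and lay at the floor in the other libraries, among them all 3 Aged Mlkl-/-. All had an adjusted p of 0.764 (limma).

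Other genes of lymphoid commitment and antigen receptor signalling, 36 that are not among the 37, were read by the same rule. They held 155 regions, 81 of them tested, of which 1 rose with age (in a Cd28 intron, by 1.01 ± 0.14 SE, adjusted p = 0.000389, limma) and 0 fell. Of all tested regions in the catalogue 1.72% rose and 1% fell, so these counts were near the background. The median change of the 81 was 0.01, and 0 of them passed in the other contrasts. Cd28 encodes the co-stimulatory receptor of T cells.

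The 10 motifs were searched by their letters on both strands within 150 bp of the strongest summit of every region, as a description. The E2A letters (CAGCTG) stood in 25.4% of distal lymphoid and 20.7% of all distal regions, and the EBF letters (CCCNNGGG) in 13.4% and 8.86%. The shares were lower in distal lymphoid regions for RUNX (10.6% against 15.0%), TCF/LEF (CTTTGA, 14.1% against 18.6%), AP-1 (11.3% against 15.0%) and FOXO (TGTTTAC, 2.11% against 4.67%). For the remaining motifs the shares were 19.0% and 22.1% for ETS (AGGAAGT), 24.6% and 25.7% for Ikaros (TGGGAA), 14.1% and 15.4% for the GATA factors (AGATAA), and 14.1% and 11.9% for IRF (GAAANNGAA).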

How the data were processed

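ATAC-seq was done on sorted HSCs, and each of the 12 libraries had 1 deposited summit list. Per the labels and the study's methods, the authors aligned single reads to mm10 with Bowtie2 2.5.3 and called peaks per library with MACS2 2.2.7.1. Column 5 of the deposited lists is the -log10 q-value of the summit, with a lowest value of 2.00. No read counts were used here, so depth is unknown and no counting interval is given.

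Summits with a score of at least 3 on chromosomes 1 to 19, X and Y were extended by 250 bp and merged into 71006 regions. Annotation was GENCODE M21, and sequence was that of RefSeq GRCm38. Each list was cut to 35714 summits, ranks over the catalogue were turned into normal scores (summits tied at the cut were taken in a seeded random order), and regions called in at least 3 lists were fitted with limma 3.58.1 (4 group means, all 12 libraries, trended variance) for 7 contrasts. P-values were adjusted by Benjamini-Hochberg over all 37886 regions, with a threshold of 0.01. The steps were tested on simulated lists. Because MACS2 scores rise with depth, ranks were compared and not scores. Groups came from the titles. P-values measure the spread between pools of mice.

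The genes, the other lymphoid genes and the markers were chosen with earlier results of these data known. Values in every library were given for the regions past the threshold, the 8 lowest p-values for age, the 3 lowest in each genotype contrast and all-or-none regions, with promoters as ranges, and the sequence of 1 of these regions is not reported here. Alternatives covered list length, score minimum, window, catalogue, ranks, list minimum, samples fitted, gene window, ties, covariates, file-name tag, replicate block and each replicate left out. Software was Python 3.11.15, numpy 2.4.6, pandas 2.3.3, scipy 1.17.1, R 4.3.3, samtools 1.23.1 and matplotlib 3.10.9.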

Additional observations from a re-analysis of the deposited data

Results flagged for a closer look

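Outside the regions, the windows of the lymphoid genes held 6 summits with a score under 3, in 5 genes and 4 libraries, above the limit of 3 that a count of 0 allows. Of these, 3 were in Young Mlkl-/- lists and 1 in each of the other groups, with 0 at Il7r, and no comparison used them.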

How the results depend on the processing

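For age over both genotypes the 4 lymphoid calls (2.72% of all regions passed) became 8 at an adjusted p under 0.05 (2 higher, 6 lower; 7.75% of all, so near the background), 1 with list length as a covariate (0.158%), 2 among the 9 libraries with the tag (0.616%), and 0 with summits at Y chromosome gene starts as a covariate (0.871%). The cause was not tested. Leaving out 1 library gave 3 to 4 calls. The replicate numbers did not pair the samples (correlations of same-numbered deviations from -0.301 to 0.128, with 4 of 12 libraries closest to their own number), and with the replicate block there were 3 calls, the Gata3 call being lost. For age in WT the 0 calls became 2 at an adjusted p under 0.05 (1.90% of all), 1 with the catalogue merged from the equal-length lists (0.294%), 2 with lists of unequal length (0.564%), 1 with regions called in at least 1 list (0.218%) and 2 with at least 6 lists (0.465%), and 0 to 1 with 1 library left out. In the other 5 contrasts every setting run gave 0 calls, the replicate block included. The number of regions called per library, Mlkl-/- minus WT, turned from -1.50 to 7.33 with lists of unequal length, 0.333 with a gene window of 50 kb and 0.167 with scores of at least 5. Aged minus young turned from -3.17 to 17.0 with lists of unequal length. No change with age of the 8 named regions reversed under any setting run. The presence of summits on chromosome Y could not be used as a covariate because all 12 lists held some. Depth is unknown, so its effect on the ranks was not tested.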
